A study of Mus musculus with 2 samples.

Results

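The microRNA genes with symbols from Mir3000 to Mir5999 were examined in lung of mouse embryos at embryonic day 16.5. They were taken by their GENCODE M21 symbol from both deposited gene tables, leaving out by position 4 genes in a large imprinted microRNA cluster on chromosome 12. This gave 118 of 1973 genes. The number range did not use any measured value. The first member by number was Mir3057, with 30 and 34 counts in replicates 1 and 2, and the last was Mir5710, with 0 in both. The nearest genes outside the range were Mir2861, with 0 counts in both, and Mir6236, with 299 and 328.

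Both libraries came from lung of the B6NCrl strain, male and female embryos pooled, with no treatment or altered allele named. They form 1 group of 2 replicates, numbered as biological in the labels, and the pool of replicate 2 held 41 embryos. In whole lung, fewer cells of a type and less RNA per cell cannot be told apart. Small RNA of under 30 bases was sequenced, and reads were counted per microRNA gene, 6376715 in replicate 1 and 4123748 in replicate 2. The p-values below compare the reads of these 2 libraries and not conditions. Levels are given as CPM, counts scaled to a total of 1e+06 over all microRNA genes of a library. A gene with no count could still stand at 0.470 CPM in replicate 1 or 0.727 CPM in replicate 2 (3 counts). Such limits and the intervals below cover counting error only, since reads carry no molecular identifiers. MicroRNAs typical of lung tissue were present: 9 of 9 epithelial, 3 of 3 endothelial and 6 of 6 mesenchymal markers reached 10 counts in both libraries. Their mean shares of the gene counts were 5.35%, 8.36% and 8.17%. Markers of other tissues held 0.155% (blood, 3 of 3 at that level), 0.0899% (skeletal and heart muscle, 2 of 5), 0.0356% (liver, 1 of 1) and 0.000218% (neural, 0 of 5). Mir133a-1, Mir133a-2, Mir1a-1, Mir9-2 and Mir124a-1 had 0 counts in both. The lists held 4 endothelial, 4 blood, 6 muscle and 6 neural markers. Those with no gene of that symbol were left out of these counts and shares. The lists were chosen with earlier results of these data known. Of all genes numbered below 1000, 58.7% reached 10 counts in both libraries.

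A microRNA gene is transcribed as a hairpin, which Drosha and then Dicer trim to a duplex. One arm is loaded into an Argonaute protein, and its seed, bases 2 to 8, pairs with target messenger RNAs. MicroRNA numbers follow the order of registration, so the high numbers went to genes found later, many of them by deep sequencing. Many such hairpins lie in introns of protein-coding genes, and a mirtron is one whose ends are made by splicing in place of Drosha.

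The sequences below are those of the leading members and of the cases where a member's reads could be shared with another gene. Sequences were taken from RefSeq on GRCm38.p6, which held 110 of the 118 members, and that of the Mir3102 hairpin from GENCODE M21 on mm10. The files count reads per hairpin, so which arm the reads came from is not known. The first pair shows the arms of Mir3074-1 and of Mir24-1, which are read from opposite strands of one locus. The capitals mark the overlap of the 2 arms, 20 bases, all 20 of them complementary.
mmu-miR-3074-5p: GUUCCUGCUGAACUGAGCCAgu
mmu-miR-24-3p: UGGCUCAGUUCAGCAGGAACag

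The hairpin of Mir3102 is exactly 1 intron of its host, and the capitals mark the first and last bases of that intron, the GT and AG of the splice sites.
Mir3102 hairpin: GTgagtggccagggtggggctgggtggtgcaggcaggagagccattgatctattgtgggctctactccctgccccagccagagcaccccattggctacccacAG

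For Mir5099 the hairpin is shown with no capitals, since no arm is listed in the table.
Mir5099 hairpin: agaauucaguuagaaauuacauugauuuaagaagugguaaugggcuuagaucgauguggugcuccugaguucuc

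In the arms of the next members by level, from Mir3102 to Mir5113, and in the let-7g arm shown for comparison, capitals mark the seed.
mmu-miR-3102-5p: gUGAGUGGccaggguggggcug
mmu-miR-3102-5p.2-5p: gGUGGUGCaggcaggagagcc
mmu-miR-3102-3p.2-3p: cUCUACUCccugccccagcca
mmu-miR-3102-3p: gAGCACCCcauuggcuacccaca
mmu-miR-3105-5p: aGAGCAAGcccguaagcagcgu
mmu-miR-3105-3p: aCUGCUUAugagcuugcacucc
mmu-miR-3099-5p: cCAGCUUCcuuccagcccuug
mmu-miR-3099-3p: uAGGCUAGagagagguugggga
mmu-miR-3066-5p: uUGGUUGCuguagauuaaguag
mmu-miR-3066-3p: cACUUAAUagaccgcaaccugc
mmu-miR-3061-5p: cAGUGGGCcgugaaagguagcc
mmu-miR-3061-3p: cUACCUUUgauaguccacugcc
mmu-miR-3080-5p: uGAAGCGCcuguucuuggau
mmu-miR-3080-3p: uCCUCGGGcaaagcgcuugaca
mmu-miR-3058-5p: uCAGCCACggcuuaccuggaaga
mmu-miR-3058-3p: uUCCUGUCagccgugggugcc
mmu-miR-3962: aGGUAGUAguuuguacauuu
mmu-let-7g-5p: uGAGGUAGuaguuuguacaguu
mmu-miR-5113: aCAGAGGAggagagagauccugu

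Most members were at low counts or at 0. Of the 118 members, 22 (18.6%) had at least 10 counts in each library, called detected here, against 17.6% of all 1973 genes. The share of members is near that of all genes. A further 55 members had some counts below that level, and 41 (34.7%) had 0 counts in both libraries, against 64.1% of all genes. All genes include many with other names than Mir and a number, 852 in all, of which 92.6% had 0 counts in both libraries. By number, 273 of 465 genes (58.7%) below 1000 were detected, 14 of 78 (17.9%) between 1000 and 2000, 0 of 4 between 2000 and 3000 and 16 of 373 (4.29%) from 6000 upward. The plot of genes by number shows these shares beside those of the members. Within the members, 18 of 70 (25.7%) in the 3000s were detected and 4 of 48 (8.33%) in the 5000s. No member has a number in the 4000s.

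**Figure D1:**
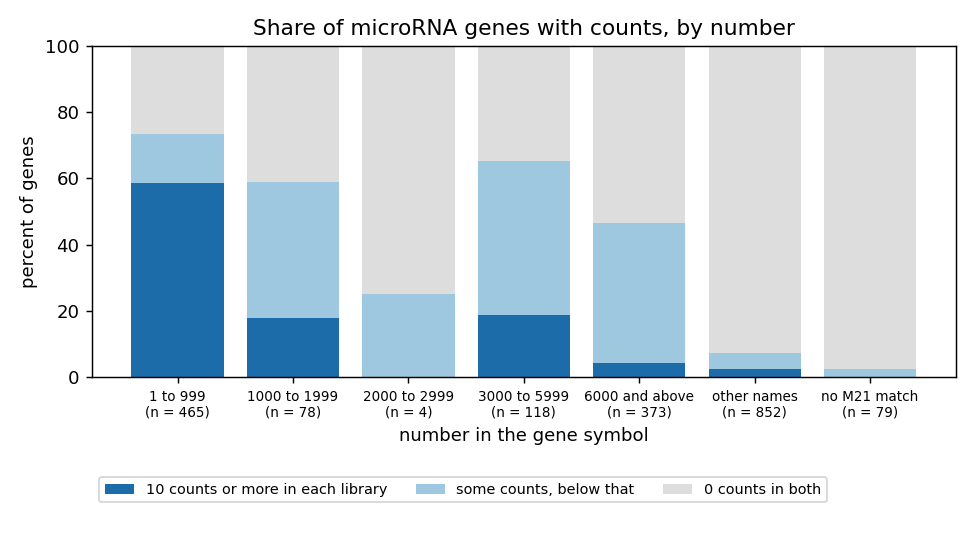
Bars give the percent of microRNA genes (y axis) in each range of the number in the symbol (x axis, with the number of genes). Dark blue is 10 counts or more in each library, light blue some counts below that and grey 0 counts in both; the dark part is 58.7% below 1000, 18.6% for the members and 4.29% from 6000 upward.

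The members held 3049 counts in replicate 1 and 2131 in replicate 2. That is 0.0478% of gene counts (exact Clopper-Pearson 95% interval 0.0461 to 0.0495) and 0.0517% (0.0495 to 0.0539), with a mean of 0.0497% ± 0.00273 (SD, n = 2). For scale, the most abundant gene of the tables, Mir322, had 84676 CPM ± 2070 (SD, n = 2), and the members together had 478 CPM and 517 CPM. The counts were concentrated. The highest member held 26.8% ± 1.81 of the members' counts, the highest 3 held 59.6% ± 0.320 and the 22 detected ones 91.1% ± 0.292 (SD, n = 2). These shares add both strands. For the highest member, Mir3074-1, 40.7% and 38.9% of its counts lay on the opposite strand. Of the 22 detected members, 21 had a mean below 100 CPM and 14 below 10 CPM, against 153 and 61 of the 347 detected genes of the tables. Their median was 7.49 CPM, against 180 CPM over all detected genes.

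Mir3074-1 (ENSMUSG00000092741.1, chr13:63301199-63301283, minus strand, mm10) led the members by the counts of both strands. It had 779 counts (122 CPM) in replicate 1 and 599 (145 CPM) in replicate 2, a mean of 133.7 CPM ± 16.3 (SD, n = 2), at rank 189 of all genes. The gene lies in an intron of Fancc, which encodes a protein of the Fanconi anaemia DNA repair pathway. On the other strand of its hairpin lies Mir24-1, whose annotated RefSeq hairpin overlaps it over 68 bases. No row of the tables has the symbol Mir24-1. The other members opposite a microRNA gene were Mir3073a, opposite Mir3073b (2 and 0 counts), and Mir5615-2, opposite Mir5615-1 (0 and 0).

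The strand columns of the tables divide the counts of Mir3074-1. On its own strand it had 462 counts in replicate 1 and 366 in replicate 2. On the opposite strand, that of Mir24-1, it had 317 and 233 counts. The opposite strand thus held 40.7% of its counts (95% exact interval 37.2 to 44.2) and 38.9% (34.97 to 42.9). Scaled to the total of the sense strand column, Mir3074-1 had 74.4 and 91.2 CPM, a mean of 82.8 ± 11.9 (SD, n = 2). On that scale Mir5099 had 86.5 and 89.0 CPM, a mean of 87.7, above that of Mir3074-1. The ranges of the 2 genes overlapped. The hairpin of Mir3074-1 also shares 22 bases with the reverse strand of Mir24-2 (233 CPM ± 6.75, SD, n = 2). The part of reads matching both was not tested. The RefSeq arm of Mir3074-1 is identical to that of Mir3074-2, a symbol with no counts listed. How reads matching both of these arms were counted was not tested. Upstream on the opposite strand lie Mir23b (25854 and 27740 CPM) and Mir27b (2190 and 2397 CPM), which form a cluster with Mir24-1.

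Mir5099 (ENSMUSG00000092998.1, chr12:36816205-36816278, plus strand) was next, with 537 and 357 counts, or 84.2 and 86.6 CPM (mean 85.4 ± 1.67, SD, n = 2). It overlaps no other annotated gene. All of its counts were on its own strand, and the libraries differed by less than 1.5-fold. By the mean it lay above Mir3102 (ENSMUSG00000093296.1, chr7:100882306-100882409, minus strand), which had 493 and 318 counts. The level of Mir3102 was 77.3 CPM in replicate 1 and 77.1 CPM in replicate 2 (mean 77.2 ± 0.140, SD, n = 2). The values of these 2 genes did not overlap, and their order was not tested against counting error. They stood at ranks 199 and 201 of all genes.

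Mir3102 is hosted by the protein-coding gene Arhgef17. Its hairpin of 104 bases spans an intron of 104 bases from the first base to the last. That layout is the textbook form of a mirtron, and an annotated transcript that keeps the intron covers it as an exon. RefSeq lists 4 arms for it, an outer and an inner pair. The hairpin equalled an intron in 2 of the 118 members and in 22 of the 1894 genes with an M21 match. Of the 2 members, the other was Mir3547, in Baiap3, with 0 counts in replicate 1 and 1 in replicate 2.

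Mir3105 (chr7:144009254-144009338, plus strand) had 196 and 134 counts, or 30.7 and 32.5 CPM (mean 31.6 ± 1.24, SD, n = 2). It lies in an intron of Shank2, a scaffold protein of excitatory synapses. Below it came Mir3099 at 15.9 CPM ± 2.26 (SD, n = 2; 91 and 72 counts; chr7:6803587-6803670, plus strand). Its host is Usp29, a ubiquitin peptidase gene of the imprinted Peg3 region, in an intron of 169340 bases. Mir3105 and Mir3099 are on chromosome 7, as is Mir3102, and each stands in a different host.

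The other detected members in introns of their own strand had fewer than 100 counts. Mir3066, in Nol10 of the nucleolus, had 81 and 58 counts (13.4 CPM ± 0.963; chr12:17355392-17355474). Mir3080, in the transcriptional coregulator Tcf20, had 67 and 43 (10.5 ± 0.0563; chr15:82959218-82959296). Mir3058 had 64 and 39 (9.75 ± 0.409; chr10:95559231-95559321) and lies in Nudt4, an enzyme that acts on inositol pyrophosphates. Errors are SD with n = 2 here and for the genes that follow. The values of Mir3080 (10.4 to 10.5 CPM) and Mir3058 (9.46 to 10.04 CPM) did not overlap. Their counts, 67 and 43 against 64 and 39, are too close to order these genes.

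Further down were Mir5618 in Tmem123 (32 and 22 counts, 5.18 CPM ± 0.224; chr9:7784390-7784440) and Mir3086 in Hspa12a, a distant member of the Hsp70 family (36 and 13 counts, 4.40 ± 1.76; chr19:58911673-58911759). Mir3060 in the RING finger gene Rnf215 had 30 and 11 counts (3.69 ± 1.44; chr11:4139364-4139446). Mir3109 in Anxa2, a phospholipid-binding annexin, had 21 and 13 (3.22 ± 0.0995; chr9:69456944-69457031). Mir3075 in the coregulator Zmiz1 had 24 and 11 (3.22 ± 0.775; chr14:25534439-25534523), and Mir3097 in Rgs12, a regulator of G protein signalling, had 15 and 14 (2.87 ± 0.737; chr5:35021049-35021115). These counts are too few to order the genes, and the CPM ranges of Mir3086, Mir3060, Mir3109 and Mir3075 overlap.

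The remaining detected members with a host overlapped an annotated exon of the same strand. Mir5113 (43 and 42 counts, 8.46 CPM ± 2.43; chr15:80940039-80940120) lies in Tnrc6b, a GW182 protein that binds Argonaute. Mir3064 (35 and 21 counts, 5.29 ± 0.280; chr11:106782693-106782759) lies in Ddx5, an RNA helicase that works with Drosha. Mir3061 had 70 and 50 counts (11.6 ± 0.811; chr11:52126746-52126836) in Ppp2ca, the catalytic subunit of protein phosphatase 2A, where it overlaps an exon outside the coding sequence. Mir3057 had 30 and 34 (6.47 ± 2.50; chr10:81271597-81271687) in the adaptor gene Apba3, and Mir3076 had 10 and 10 (2.00 ± 0.606; chr14:30572149-30572208) in Tkt, the transketolase of the pentose phosphate pathway. Any overlap with an exon, whatever its length, counted. For Mir3057, Mir3064 and Mir3076 the overlap includes annotated coding sequence of the host. Apart from the last base at their 3' end, Mir3064 and Mir3076 also lie within annotated introns, of 737 and 962 bases. Reads from such hairpins and fragments of the host's own transcript were not told apart by the files.

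Outside hosts of either strand there were 4 detected members. Beside Mir5099 these were Mir3962 (62 and 35 counts, 9.11 CPM ± 0.874; chr1:194822001-194822064), Mir3475 (46 and 24, 6.52 ± 0.986; chrX:140310948-140311012) and Mir5626 (22 and 17, 3.79 ± 0.475; chr9:70405694-70405753). The arm of Mir3962 matched that of let-7g in 19 of 20 aligned bases, as the printed sequences show. Mirlet7g had 62701 CPM ± 2333 (SD, n = 2), and whether reads of let-7g account for counts of Mir3962 was not tested. Arms were compared with those of genes outside the members, leaving out genes on chromosome 18, such as Mir143. Among arms of detected members, that of Mir3962 had such a match, of at least 16 bases and at most 2 mismatches. The only other was that of Mir3074-1, which is identical to that of Mir3074-2.

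**Figure D2:**
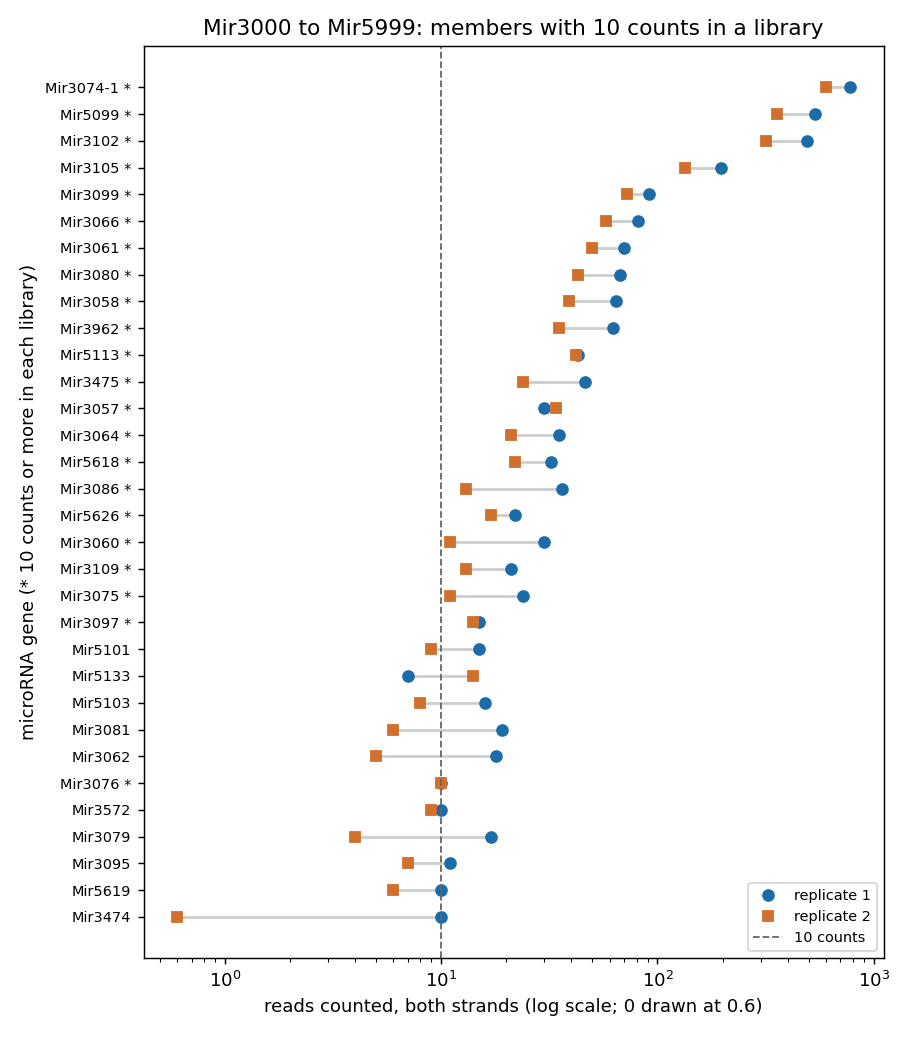
Reads counted (x axis, log scale, both strands) for each member with 10 counts or more in at least 1 library, ordered by mean CPM from the top. Blue circles are replicate 1 and orange squares replicate 2, the dashed line is 10 counts and an asterisk marks the 22 members at or above it in both libraries; Mir3074-1, Mir5099, Mir3102 and Mir3105 stand apart above 100 counts.

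By host, 12 of 53 members in a sense intron were detected (22.6%), 6 of 34 with a sense exon overlap (17.6%), 4 of 17 outside any host (23.5%) and 0 of 14 that have a host on the opposite strand only. Over all genes the same shares were 141 of 720 (19.6%), 91 of 343 (26.5%), 86 of 582 (14.8%) and 29 of 249 (11.6%). Of the 22 detected members, 18 had a protein-coding host on their own strand, as did 83 of the 118 members. Such hosts were not counted over all genes. The levels of the host transcripts were not measured in these libraries.

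Hairpin ends next to splice sites were found in 21 of 118 members (17.8%) and in 226 of 1894 genes with an M21 match (11.9%), counting ends within 10 bases of an intron's end. Of these, 4 members and 12 genes in all were detected. The 4 were Mir3102, with both ends at splice sites, and Mir3064, Mir3097 and Mir3076, whose 3' ends lay within 1 base of the 3' splice site. Mir3062 in Pfas, an enzyme of purine synthesis, also had both ends near splice sites and had 18 and 5 counts.

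Sequence copies were few. Of 13 members that share 22 bases with another microRNA gene of the tables on either strand, 10 had 0 counts in both libraries and 1 (7.69%), Mir3074-1, was detected. Of the 105 without a copy, 31 had 0 counts in both and 21 (20%) were detected. Over all genes, 62 of 876 with a copy (7.08%) and 285 of 1018 without (28%) were detected, so the lower share with a copy was seen over the tables as a whole. Reads that match several loci stand on a summary line, at 29.97% and 31.8% of all reads, and their part in the counts of genes with copies was not tested. Of the members, 5 had another microRNA gene of the tables on their strand within 10 kb, and 1 of these, Mir3064, was detected. Such neighbours were not counted over all genes. The opposite strand held 326 of 3049 member counts (10.7%) in replicate 1 and 238 of 2131 (11.2%) in replicate 2, and most of these were in Mir3074-1. Without that gene, the other members had 9 and 5 opposite-strand counts, 0.396% and 0.326% of their counts. Over all genes, the sense strand held 97.4% and 97.3% of the counts, against 89.3% and 88.8% for the members. Of 77 members with counts, 72 had them on their own strand alone, and the same count over all genes was not made. The exceptions were Mir3074-1, Mir3086 (6 and 1 opposite-strand counts), Mir5618 (2 and 2), Mir5132 (0 and 1) and Mir5620 (1 and 1).

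A group of 10 members had at least 10 counts in 1 library only, 9 of them in replicate 1, the deeper one. Closest to the limit were Mir3572 in Cnot3, a subunit of the CCR4-NOT deadenylase (10 and 9 counts), and Mir5101 in Syne2, a nuclear envelope protein (15 and 9). Mir5103 in the long noncoding RNA Gm37233 had 16 and 8, Mir3095 in the lysophosphatidic acid receptor gene Lpar1 had 11 and 7, and Mir5619 in Nudt9 had 10 and 6. Wider apart were Mir3081 in Boc, a Hedgehog co-receptor (19 and 6), Mir3062 (18 and 5), and Mir3079, antisense to Spatc1 (17 and 4). Mir5133 in Glce, an epimerase of heparan sulphate synthesis, had 7 and 14 counts, the reverse direction. Mir3474 in Actr5, a subunit of the INO80 complex, had 10 counts in replicate 1 and 0 in replicate 2. Its CPM in replicate 1 was 2.16-fold that of the 3 counts that a 0 allows in replicate 2. That ratio leaves out the counting error of the 10 counts, so it is not a lower limit.

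The libraries were then compared for the detected members. Mir3074-1 was 1.19-fold higher in replicate 2 (exact 95% interval 1.07 to 1.32). It was the 1 member of 22 that passed an exact binomial test of its counts against the library totals (adjusted p = 0.00419, Benjamini-Hochberg over 347 genes). Over all 347 detected genes, 47.0% passed. With the test run on all 421 genes with a sum of 10 counts, 3 of 37 members passed, against 40.1% of those genes. That test weighs counting error alone, and most members have too few counts for it to call small differences. On its own strand the direction was the same, with a log2 ratio of replicate 1 over replicate 2 of -0.29. Of the 22 members, 10 were higher in replicate 1 and 12 in replicate 2, and 17 (77.3%) lay within 1.5-fold, against 90.5% of all 347.

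The members outside 1.5-fold had between 10 and 36 counts per library, or 42 and 43 for Mir5113. Mir3057, with 4.70 and 8.24 CPM, was 1.75-fold higher in replicate 2 (exact 95% interval 1.04 to 2.96). Its adjusted p was 0.0601 in the exact binomial test, past the threshold of 0.05, so it was not called. Mir5113 was 1.51-fold higher in replicate 2 (0.963 to 2.37) and Mir3076 1.55-fold (0.578 to 4.14). Mir3086 was 1.79-fold higher in replicate 1 (0.927 to 3.68) and Mir3060 1.76-fold (0.859 to 3.90). The intervals of these last 4 genes include 1, so no difference was detectable at this depth. The median log2 ratio of replicate 1 over replicate 2 was -0.06 over the 22 members and -0.05 over all 347 genes.

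**Figure D3:**
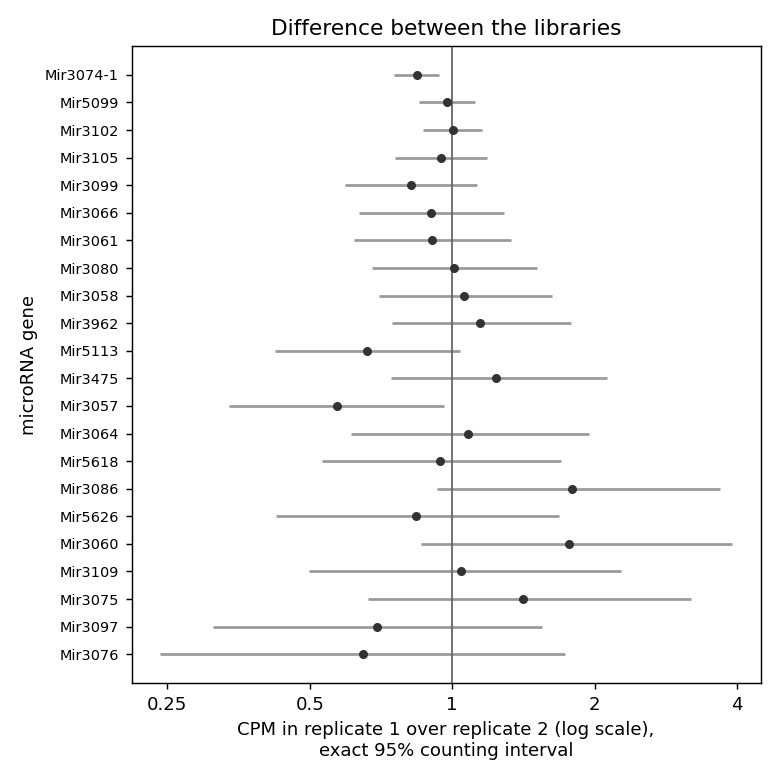
Points give CPM in replicate 1 over replicate 2 (x axis, log scale) for the 22 detected members, from the most abundant at the top, and bars the exact 95% counting interval. The interval widens from Mir3074-1 (779 and 599 counts) to Mir3076 (10 and 10 counts), and those of Mir3074-1 and Mir3057 leave out 1.

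**Figure D4:**
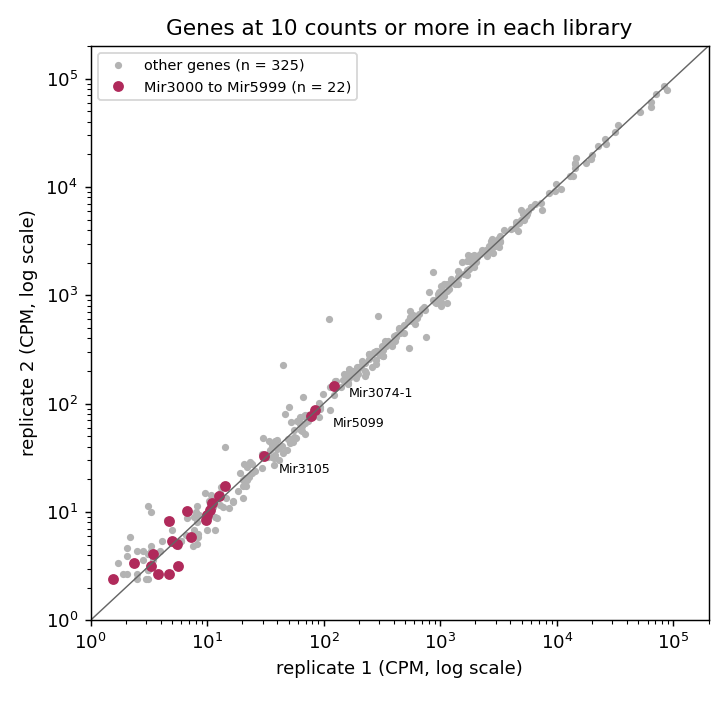
CPM in replicate 2 (y axis) against replicate 1 (x axis, both log scales) for the 347 genes at 10 counts or more in each library, with the 22 members in red, the other 325 in grey and a line of equal levels. The members lie in the lower part, between 2.00 CPM and 133.7 CPM by their means.

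Seeds were compared for 168 RefSeq arms of 109 members, with all genes on chromosome 18 left out. The seed of mmu-miR-3102-5p, UGAGUGG, is also that of mmu-miR-702-5p. That of mmu-miR-3064-5p, CUGGCUG, is shared with mmu-miR-3085-3p of the members, and Mir3085 had 0 counts in both libraries. The seed of mmu-miR-3475-5p, AAUCAUG, is that of mmu-miR-96-3p, that of mmu-miR-5626-3p, AGCAGUU, is that of mmu-miR-6402, and that of mmu-miR-3058-3p, UCCUGUC, is that of mmu-miR-7681-5p. The seed of mmu-miR-3074-5p, UUCCUGC, recurs in the identical arm of Mir3074-2. No other seed of a detected member recurred among the arms compared.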

How the data were processed

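The authors deposited raw read counts for each microRNA gene, without normalization, on mm10 and GENCODE M4 per the file headers. Aligner, counter and trimming: not given in the sources used here. Of 3 count columns, the one used adds the sense and opposite strands, as the values show in every gene. The 4 summary lines stayed out of totals. Symbols, coordinates (1-based), hosts and hairpins come from GENCODE M21 on the same build (1894 of 1973 identifiers matched, version removed), and arms from RefSeq. Libraries were compared by a two-sided exact conditional binomial test. Benjamini-Hochberg adjustment at 0.05 was over all genes at 10 counts or more in each library. The test was tried on simulated counts with counting error alone, scaled by the genes left unchanged. That does not show how the test behaves where libraries vary further. A single group allows no test of conditions. edgeR 4.0.16 and DESeq2 1.42.0 gave other scalings. Hairpins were folded with RNAfold 2.7.2 of ViennaRNA. Python 3.11.15, scipy 1.17.1 and R 4.3.3 were used.

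Named are all members at 10 counts in each library or in 1, and those opposite another microRNA gene. The members and lists were chosen with earlier results of these data known. Alternatives were the count minimum, the strand column, the scaling, the denominator, copies left out and each replicate left out; those leaving out Mir3074-1 or adding the 4 genes of chromosome 12 were chosen after seeing the data.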

Additional observations from a re-analysis of the deposited data

Results flagged for a closer look

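Counts on the opposite strand of a member, above the 3 counts that a 0 allows, appeared in a column that the levels above do not separate. Mir3074-1 had 317 such counts in replicate 1 and 233 in replicate 2, at the position of Mir24-1. Mir3086 had 6 in replicate 1 and 1 in replicate 2. No other member passed 3 in either library.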

How the results depend on the processing

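The count of 22 detected members became 34 at a minimum of 5 counts, 34 at 1 CPM in each library and 1 on the opposite strand column. It was 22 on the sense column, 15 at a minimum of 20, 21 without copies and 23 to 31 with a replicate left out. The members' share of gene counts, 0.0497%, was 0.0455% on the sense column, 0.203% of the counts on the opposite strand column, 0.0245% of all reads, 0.0364% without Mir3074-1 and 0.0839% with the 4 genes of chromosome 12. With a replicate left out it was 0.0478% to 0.0517%. Testing all genes with a sum of 10 counts gave 3 of 37 members that differ between libraries in place of 1 of 22, adding Mir5133 and Mir3474, against 40.1% of all 421 genes so tested; with edgeR's TMM factors and DESeq2's size factors it was 1. The log2 ratio of Mir5099, -0.04, became 0.0119 with TMM factors and 0.00404 with DESeq2's size factors, not called in any. The other 21 ratios kept their direction and side of the threshold under these and the sense column. Of the 32 named levels, 26 moved by no more than 1 SD on the sense column. Most members lie under 10 CPM, where counting error limits any difference below 1.5-fold.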

Other observations

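The 4 genes of the range that the position rule left out, on chromosome 12 between positions 109587943 and 109747960, had 2315 counts in replicate 1 and 1321 in replicate 2, 0.0342% ± 0.00302 of gene counts (SD, n = 2). Of these, 2 were detected, Mir3071 (301 CPM ± 33.7, SD, n = 2) and Mir3072 (38.5 ± 3.87). Mir3071 alone lay above every one of the 118 members in both libraries. These levels add both strands, which were not separated for the 4 genes.

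The arm of Mir3965 matched that of Mir21a in 17 of 19 aligned bases. Mir3965 had 0 counts in both libraries, while Mir21a had 8695 CPM. Mir3962 beside let-7g had 19 of 20 matching bases and 62 and 35 counts.

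The median predicted energy per base was -0.429 kcal/mol over the 22 detected members and -0.453 over the 96 others. Over all genes it was -0.435 for the 347 detected and -0.355 for the 1547 others with a sequence. The GC content of the hairpins had a median of 52.8% in detected members and 53.7% in the others. These are descriptions across genes, many of which share sequence.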
